A study of Mus musculus with 2 samples.

Results

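Genes for the chemosensory receptors of the nose and tongue were examined in a map of open chromatin from mouse cardiac progenitor cells (CPCs), a cell type of the forming heart. A peak was taken as a chemoreceptor peak when the gene symbol deposited beside it started with Olfr, Vmn1r, Vmn2r, Taar, Tas1r or Tas2r followed by a digit. Of 26232 distinct peaks, 88 met this rule, and they were assigned to 77 of the 15351 genes that had a peak. By family there were 61 peaks of 53 Olfr genes, 9 peaks of 7 Vmn1r genes, 14 peaks of 13 Vmn2r genes, 1 peak of Taar6 and 3 peaks of 3 Tas2r genes, while no peak was assigned to a Tas1r gene. None of the 88 intervals was also listed for another gene.

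The map came from ATAC-Seq, an assay that marks accessible DNA by letting the Tn5 transposase cut it and attach sequencing adapters. The CPCs came from E14 Tg(Nkx2–5-EmGFP) mouse ES cells, which carry a green fluorescent reporter for the early cardiac transcription factor Nkx2-5, and were taken at day 5 of differentiation. The methods describe a directed protocol with BMP4, Activin A, VEGF, bFGF and FGF10 and a hanging drop protocol. They do not state which of them gave the cells for this assay. The labels give the strain as C57BL/6, name neither a knockdown nor a treatment, and do not mention sorting for the reporter before the assay. The 2 samples, which the methods describe as independent differentiations of this line, formed 1 group and shared 1 list of peaks found in both, and Isl1 knockdown cells were not analysed here. The list held neither a score nor a value for either sample, which left depth unknown and gave no error between replicates, and no difference could be tested. Intervals given below are 95% confidence intervals that cover counting error only, and neighbouring genes and peaks are not independent of each other.

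Odorant receptors, encoded by Olfr genes, are G protein-coupled receptors of olfactory sensory neurons, and each mature neuron expresses a sole member of the family. Vmn1r and Vmn2r genes encode pheromone receptors of the vomeronasal organ, Taar genes trace amine-associated receptors of the olfactory epithelium, and Tas1r and Tas2r genes the sweet, umami and bitter receptors of taste cells. Most of these genes stand in long tandem clusters, and in olfactory neurons the odorant receptor clusters are held in heterochromatin, from which the expressed allele escapes. RNA was not analysed here, so the map says where DNA was accessible and not which genes were transcribed.

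The sequence of the peaks is shown first because it recurred between families. Among the 88 peaks, 11 peaks assigned to 11 genes on 7 chromosomes held an identical run of 32 bases. The lines below give this run with its flanks in 5 of the peaks, each 112 bases long and read on the strand that carries the run, with the run and the 6 letters TAATTA in capitals.
Olfr161, chr16:3543457-3543568, plus strand: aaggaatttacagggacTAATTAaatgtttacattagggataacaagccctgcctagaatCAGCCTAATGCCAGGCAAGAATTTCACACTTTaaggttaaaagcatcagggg
Olfr461, chr6:40497134-40497245, minus strand: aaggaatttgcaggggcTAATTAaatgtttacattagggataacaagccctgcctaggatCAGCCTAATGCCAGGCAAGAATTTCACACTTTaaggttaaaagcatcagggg
Tas2r109, chr6:132929152-132929263, plus strand: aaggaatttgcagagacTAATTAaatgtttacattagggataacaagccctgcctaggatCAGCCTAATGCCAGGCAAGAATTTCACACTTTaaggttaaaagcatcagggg
Vmn1r184, chr7:27031533-27031644, plus strand: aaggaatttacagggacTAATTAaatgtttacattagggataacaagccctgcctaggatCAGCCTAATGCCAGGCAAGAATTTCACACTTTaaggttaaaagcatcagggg
Vmn2r2, chr3:63995723-63995834, plus strand: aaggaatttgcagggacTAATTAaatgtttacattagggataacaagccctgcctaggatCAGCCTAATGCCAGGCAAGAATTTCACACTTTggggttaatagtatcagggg

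Positions here and below are on mm9. Over the 112 bases the other 10 peaks differed from the Olfr161 copy at 1 to 6 bases, the most being in the Vmn2r2 copy. The 11 peaks were those of Olfr161, Olfr368, Olfr461, Olfr1002, Olfr1229, Tas2r109, Vmn1r184, Vmn1r234, Vmn2r104 and Vmn2r121 and the farther of the 2 peaks of Vmn2r2. They were 565 to 1396 bp wide, and their midpoints lay between 890 and 792261 bp from the assigned transcription start site (TSS). How this sequence was distributed in the genome is described with the repeated sequence below.

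Of 8 cardiac progenitor genes 7 (87.5%, 52.9 to 97.8%), Isl1, Nkx2-5, Tbx5, Gata4, Mef2c, Kdr and Pdgfra, had an assigned peak, with 29 peaks in all, and Hand2 had none. Of all protein coding genes 62.5% had one. Among 5 genes that mark olfactory sensory neurons, Omp, Gnal and Adcy3 had a peak and Cnga2 and Stoml3 did not. The vomeronasal channel gene Trpc2 had no assigned peak, and the taste cell genes Gnat3, Trpm5 and Plcb2 had 1 each. With so few genes, the presence of a peak at any distance thus did not separate the cardiac markers from those of the sensory cells. The peak of Gnat3 was 125608 bp from its TSS. Within 1 kb of the TSS 6 of the 8 cardiac genes had an assigned peak. So did 2 of the 5 olfactory genes and 2 of the 3 taste genes. The olfactory genes had 5 peaks in all and the taste genes 3, fewer than the 29 of the cardiac genes. These differences were not tested. A peak at such a gene is not a measurement of its expression, and how many cells of other types the cultures held was not tested.

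To ask how much of the chemoreceptor repertoire lay near accessible DNA, genes with at least 1 peak were counted over the protein coding genes of the RefSeq gene table. Of 1516 chemoreceptor genes, 76 had a peak, a share of 5.01% (4.02 to 6.23%). The share over all 21900 protein coding genes was 62.5%, and it was 66.7% (66.1 to 67.4%) over the 20384 that are not chemoreceptors. Hence 1440 chemoreceptor genes had no peak assigned to them in this list. The 77th gene with a peak, Olfr1372-ps1, is not protein coding in that table. In addition, 1 peak was listed under another symbol with an accession that the table gives to a chemoreceptor gene, and it was not counted.

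Each of the 5 families with more than 3 genes lay far below the share of other genes. Olfr genes had a peak in 52 of 1110 cases (4.68%, 3.59 to 6.09%) and Vmn1r genes in 7 of 230 (3.04%, 1.48 to 6.15%). The share of Vmn2r genes, 13 of 123 (10.6%, 6.28 to 17.2%), was the highest, and its interval lay above those of the Olfr and Vmn1r genes. Among Taar genes 1 of 15 had a peak (6.67%, 1.19 to 29.8%), and among Tas2r genes 3 of 35 did (8.57%, 2.96 to 22.4%). Of the 3 Tas1r genes none did, and with so few genes the upper Wilson bound was 56.1%.

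**Figure D1:**
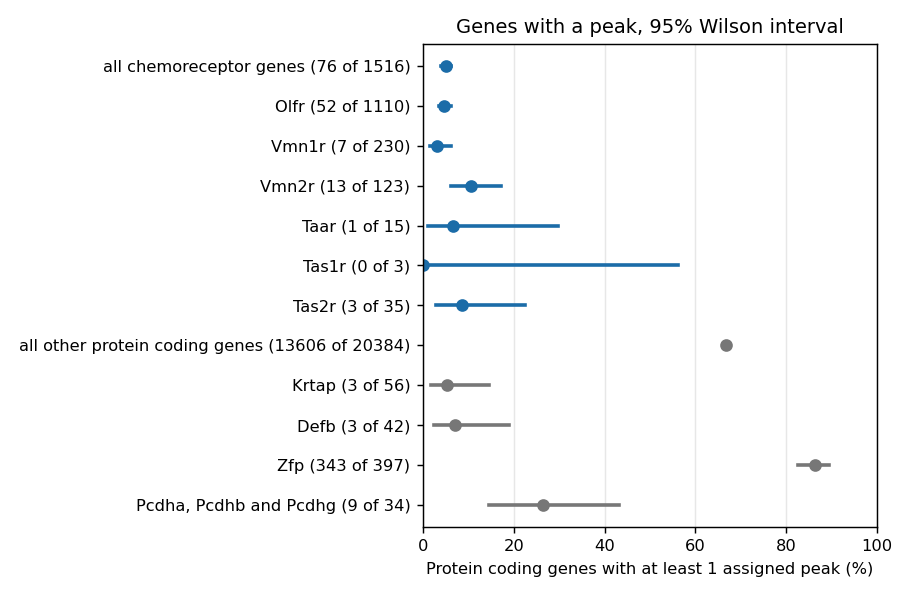
Points give the share of protein coding genes with at least 1 assigned peak (horizontal axis, percent) and lines its 95% Wilson interval, with the chemoreceptor families in blue and other genes in grey. All chemoreceptor genes together stand at 5.01%, next to the Krtap and Defb families and far from the 66.7% of all other protein coding genes.

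Other tandem gene families did not all share this low level. Krtap genes, which encode hair keratin-associated proteins, had a peak in 3 of 56 cases (5.36%, 1.84 to 14.6%), and Defb genes, which encode beta defensins of epithelia, in 3 of 42 (7.14%, 2.46 to 19.0%). Both intervals contained the chemoreceptor share. In contrast, 343 of 397 zinc finger genes named Zfp (86.4%, 82.7 to 89.4%) had a peak, and 9 of 34 clustered protocadherin genes (26.5%, 14.6 to 43.1%) did.

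Chemoreceptor genes that had a peak usually had no second one. A single peak was assigned to 69 of the 77 genes (89.6%, 80.8 to 94.6%), compared with 60.7% (59.9 to 61.4%) of 15274 other genes with a peak. Olfr1402, Olfr539, Olfr55, Olfr875 and Vmn2r2 had 2 peaks each, and Olfr1507, Olfr545 and Vmn1r3 had 3 each. The mean was 1.143 peaks per gene, against 1.71 for other genes.

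Assignment to the nearest TSS can give a gene a peak that lies far from it, so gene starts were also examined directly. A start was the first base of the 5′-most protein coding transcript in GENCODE, with 500 bp on either side. A peak overlapped 6 of 1488 chemoreceptor starts, or 0.403% (0.185 to 0.877%), while the share over all 22359 protein coding genes was 53.5% and that over the 20871 other genes 57.3% (56.7 to 58.0%). The 6 genes were Olfr9, Olfr94, Olfr545, Olfr658, Tas1r1 and Vmn1r90. None of 119 Vmn2r, 15 Taar or 35 Tas2r starts had a peak, with upper Wilson bounds of 3.13%, 20.4% and 9.89%. For 61.0% of the chemoreceptor genes the annotated start coincides with the start of the coding sequence, against 8.55% of other genes. A promoter upstream of an unannotated first exon would lie outside this window, and such promoters were not examined.

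At 4 of the 6 starts the overlapping peak was assigned to the receptor gene itself. At Olfr545, Olfr658 and Olfr94 the peak covered the start, and at Olfr9 its edge lay 143 bp away. The peak of 965 bp over the start of Vmn1r90 (chr7:15208027-15208991) was assigned to Nlrp5-ps, whose TSS was 93 bp from its midpoint. The peak of 1020 bp at 222 bp from the start of Tas1r1 (chr4:151412899-151413918), which encodes a subunit of the umami receptor, was assigned to Nol9, with its midpoint 22 bp from the Nol9 TSS. The starts of the other Tas1r genes also had peaks of neighbours near them. The nearest peak was 5616 bp from Tas1r3 and assigned to Cpsf3l, and 10764 bp from Tas1r2 and assigned to Mir7020.

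The gap between a chemoreceptor start and the nearest peak of any gene had a median of 154395 bp (142860 to 167008 bp), with quartiles of 61927 and 326782 bp. For other protein coding genes the median was 0 bp, meaning that a peak covered the start, and the upper quartile was 16480 bp. Of chemoreceptor starts, 3.83% were within 10 kb of a peak and 62.6% were over 100 kb from one. The corresponding shares of other genes were 70.0% and 8.59%.

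The families differed in this gap. The median was 146208 bp (133439 to 161276 bp) for Olfr, 183714 bp (157117 to 218277 bp) for Vmn1r and 231868 bp (168958 to 295230 bp) for Vmn2r starts. The Vmn1r and Vmn2r intervals overlapped, and those of Olfr and Vmn1r overlapped slightly. Tas2r starts had a median of 123387 bp with a wide interval (65497 to 224095 bp). The 15 Taar starts, which stand in 1 cluster on chromosome 10, were nearer to peaks, with a median of 40474 bp (18552 to 57650 bp) and no start beyond 100 kb. Vmn2r genes thus had the highest share of genes with a peak and also the longest median gap among families with over 100 starts, and none of their starts was covered.

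**Figure D2:**
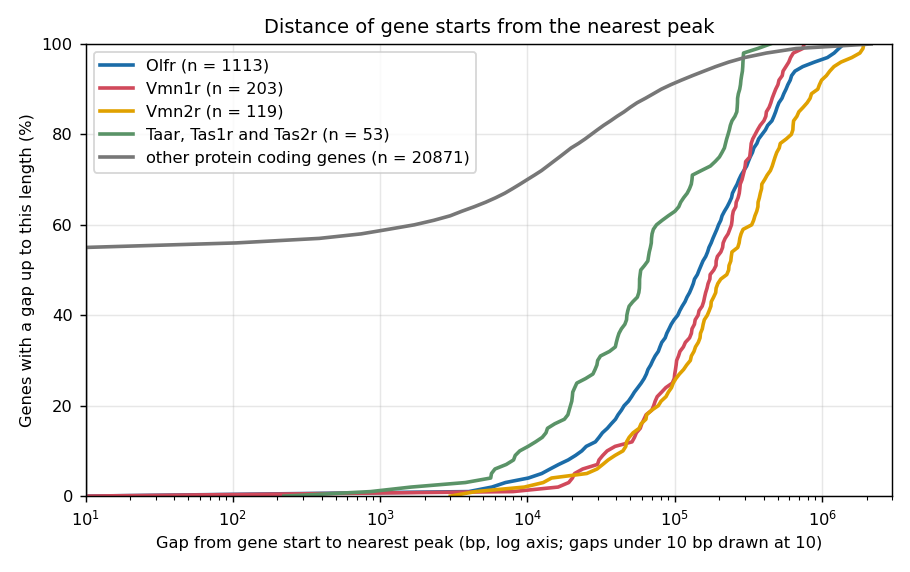
Each line gives the percent of gene starts (vertical axis) whose gap to the nearest peak is no longer than the value on the horizontal log axis in bp, for chemoreceptor families and for other protein coding genes. Other genes have a median gap of 0 bp and so lie mostly at the left edge, while the medians of the Olfr, Vmn1r and Vmn2r lines fall at 146208, 183714 and 231868 bp.

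By the deposited distances, from the assigned TSS to the midpoint of the peak and positive downstream, 5 of the 88 peaks lay within 1 kb (5.68%, 2.45 to 12.6%), against 45.0% (44.4 to 45.6%) of the 26144 other peaks. All 5 were peaks of odorant receptor genes. Olfr658 had its peak at 107 bp, Olfr545 at 263 bp, Olfr9 at 393 bp, Olfr94 at 619 bp and Olfr368 at −890 bp. The next in order was Olfr1329 at −1530 bp, followed by Tas2r109 at 1797 bp.

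The peaks of Olfr9, Olfr94 and Olfr545 lay in the coding exon of the receptor gene itself, and that of Olfr658 in its annotated untranslated region. The 120 bases at the midpoint are shown for the 3 coding exon peaks because these peaks fell within a receptor gene. They are given on the plus strand, and capitals mark TTATCT, the reverse complement of the GATA factor motif AGATAA.
Olfr9, chr10:128427304-128427423: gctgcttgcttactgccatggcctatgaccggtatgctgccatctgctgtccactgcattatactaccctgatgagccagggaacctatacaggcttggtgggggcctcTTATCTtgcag
Olfr94, chr17:37334233-37334352: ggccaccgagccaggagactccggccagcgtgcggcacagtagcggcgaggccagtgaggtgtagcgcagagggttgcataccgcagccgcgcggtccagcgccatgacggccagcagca
Olfr545, chr7:109642965-109643084: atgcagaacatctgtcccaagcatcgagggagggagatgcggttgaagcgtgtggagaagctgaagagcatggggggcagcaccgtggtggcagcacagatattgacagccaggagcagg

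The Olfr94 peak was 1331 bp wide (chr17:37333628-37334958), the widest of the 5. The 300 bp at its midpoint was CpG-rich, at 0.905 of the CpG dinucleotides that its base composition predicts (the CpG ratio) and a GC content of 71.0%, and none of its sampled 32-mers occurred elsewhere in the genome. The Olfr9 and Olfr545 peaks were narrower, at 633 bp (chr10:128427048-128427680) and 590 bp (chr7:109642730-109643319), with CpG ratios of 0.208 and 0.369. Of their 32-mers, 80.3% and 62.5% were found more than 1 time in the genome. The Olfr658 peak was 705 bp wide (chr7:111795361-111796065) with a GC content of 60.3%. The Olfr368 peak, 565 bp wide (chr2:37186098-37186662), was one of the 11 with the shared sequence shown above, and 92.6% of its 32-mers recurred.

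Most peaks stood at intermediate distances. The class from 1 to 10 kb held 41 peaks (46.6%, 36.5 to 56.9%), where other peaks had a share of 13.7% (13.2 to 14.1%). The class from 10 to 50 kb held 31 peaks (35.2%) and that from 50 to 100 kb 6 peaks (6.82%), and 5 peaks were farther away. The median absolute distance was 9856 bp (8399 to 14894 bp), against 4088 bp (3508 to 4571 bp) for other peaks. The share within 10 kb, 52.3% (42.0 to 62.4%), was close to the 58.7% of other peaks and its interval contained that value. Olfr peaks had a median distance of 9118 bp (6536 to 10410 bp), below those of Vmn1r peaks with 18301 bp (8399 to 34663 bp) and Vmn2r peaks with 32191 bp (9060 to 51069 bp), although the intervals overlapped.

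The 5 farthest peaks lay beyond 100 kb. Olfr1507 had all 3 of its peaks there, at −537157, −576946 and −866614 bp. Olfr1507 is the last gene of a receptor cluster on chromosome 14, and its peaks lay past that end, among annotated variable segments of antigen receptor genes, the nearest of whose starts were 9575, 362 and 1526 bp away. The peak of Vmn2r121 was at −792261 bp on the X chromosome and that of Tas2r119 at −142210 bp on chromosome 15. In GENCODE other protein coding starts were nearer, at 12438, 29051 and 37678 bp for the peaks of Olfr1507 and at 70900 bp for that of Vmn2r121.

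More peaks were upstream of the assigned TSS than downstream. Beyond 1 kb, 60.2% (49.5 to 70.1%) of chemoreceptor peaks were upstream, against 44.1% (43.3 to 44.9%) of other peaks at that range. All 7 Vmn1r peaks between 10 and 50 kb were upstream, as were 8 of 9 Vmn1r peaks in all. Every peak of Vmn1r3 was among the 8, which therefore come from fewer genes and are not separate cases. Olfr peaks divided into 32 upstream and 29 downstream.

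Chemoreceptor peaks were narrow. The median width was 725 bp (668 to 776 bp), with quartiles of 592 and 856 bp and a range of 417 to 2726 bp, against a median of 1082 bp (1076 to 1089 bp) for other peaks. Since peaks at a TSS are wider in this list, peaks of the same distance class were compared. Between 1 and 10 kb the medians were 723 bp (665 to 813 bp) and 1018 bp (1004 to 1032 bp), and between 10 and 50 kb 774 bp (631 to 833 bp) and 913 bp (904 to 921 bp). In both classes the intervals did not overlap. Only 12 of the 88 peaks (13.6%, 7.98 to 22.3%) were wider than 1081 bp, the median of the whole list, and beyond 1 kb the share was 13.3%, against 30.4% of other peaks. Depth, on which the width of a called peak also depends, was unknown.

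The narrowest peak, of 417 bp, belonged to Olfr798 (chr10:129058736-129059152). The widest was that of Olfr1423 with 2726 bp (chr19:12084506-12087231), followed by that of Olfr1372-ps1 with 2633 bp (chr11:51979366-51981998), that of Olfr726 with 1951 bp (chr14:50680687-50682637) and the 2 peaks of Vmn2r2 with 1396 and 1394 bp. The Olfr1423 peak was 25362 bp downstream of the TSS, and at its midpoint a CpG ratio of 1.00 stood beside a GC content of 38.3%. Olfr1372-ps1 had its peak at −9272 bp in an intron of the long noncoding RNA gene Gm16953, which also held the peak of its neighbour Olfr1371. By family the median width was 704 bp for Olfr, 776 bp for Vmn1r, 770.5 bp for Vmn2r and 597 bp for Tas2r peaks, with overlapping intervals for Olfr, Vmn1r and Vmn2r.

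**Figure D3:**
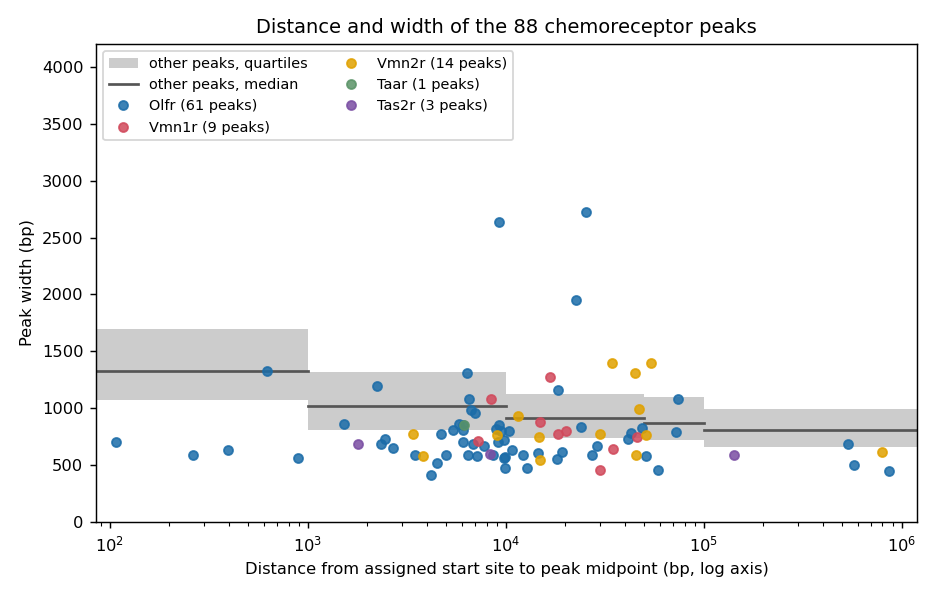
Each point is 1 of the 88 chemoreceptor peaks, coloured by family, at its absolute distance from the assigned TSS (horizontal log axis, bp) and its width (vertical axis, bp), and grey bands and lines give the quartiles and median of other peaks in 5 distance classes. Only 5 points lie within 1 kb, and most points between 1 and 50 kb fall below the median lines at 1018 and 913 bp.

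In the GENCODE annotation 72 of the 88 midpoints (81.8%) were intergenic, 9 in introns, 5 in coding exons, 1 in an untranslated region and 1 in another exon. The 9 introns included those of Vmn2r24, Vmn2r26 and Vmn2r77, where the gene itself was the host. Counting starts of genes of every type, 63 peaks (71.6%) were nearest to the start of a gene whose symbol met the rule. The other 25 were nearer to another gene, the receptor pseudogene Vmn1r-ps25 at the Vmn1r40 peak among them, 4 of them to a protein coding gene, and at 5 that start was within 1 kb. The peak of Olfr311, at 6104 bp from its TSS, was 5 bp from the start of the protein coding gene Gm12258, and had a GC content of 59.7%. The peak of Olfr97 was 109 bp from the start of the noncoding gene Gm20429, those of Olfr1322 and Vmn1r184 lay 670 and 750 bp from pseudogene starts, and 1 peak of Olfr1507 lay 362 bp from an antigen receptor segment. The peak of Olfr1394 lay in a coding exon of Btnl9, 1176 bp from that gene's start, with a GC content of 71.0%.

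To describe whole clusters whatever gene the peaks were assigned to, chemoreceptor genes were joined into runs in which the gap between neighbours was at most 1 Mb, and runs of at least 5 genes were kept. The 44 runs held 1438 of the 1488 genes (96.6%) and spanned 62.03 Mb. They contained 287 peaks, or 4.64 per Mb (4.12 to 5.21), against 10.4 per Mb (10.3 to 10.5) in the rest of the genome, which is 2.24-fold more. Peaks over 1 kb from any protein coding start were likewise sparser in runs, at 2.60 per Mb (2.22 to 3.04) against 5.68 (5.59 to 5.78), a ratio of 2.18. The runs also held 395 other protein coding genes, and 223 of the 287 peaks were assigned to genes outside the chemoreceptor families. In the 12 runs without any other protein coding gene, with 168 receptor genes over 5.53 Mb, there were 10 peaks, or 1.81 per Mb.

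The runs differed widely. The largest, Olfr987 to Olfr1272 on chromosome 2 (chr2:85171054-90122730), held 221 odorant receptor genes and 7 peaks, all assigned to receptor genes. It was followed by Olfr543 to Olfr692 on chromosome 7 with 129 genes and 10 peaks, 5 of them assigned to receptors and 5 to Trim genes, which stand among the receptors there. Olfr151 to Olfr986 on chromosome 9 had 94 genes and 4 peaks. No peak lay in 9 runs, of which the largest were Olfr1275 to Olfr1318 on chromosome 2 with 37 genes, Olfr20 to Olfr412 on chromosome 11 with 29 genes and Olfr172 to Olfr209 on chromosome 16 with 25 genes. A further 7 runs had peaks that were all assigned to other genes. The run Olfr1370 to Vmn1r223 on chromosome 13, which shares its DNA with a histone gene cluster, had 39 peaks, none of them assigned to its 45 receptor genes, and Olfr30 to Olfr225 on chromosome 11 had 31 peaks, of which 1 was assigned to a receptor, Olfr311. In the run with the Taar genes the only peak was that of Taar6.

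**Figure D4:**
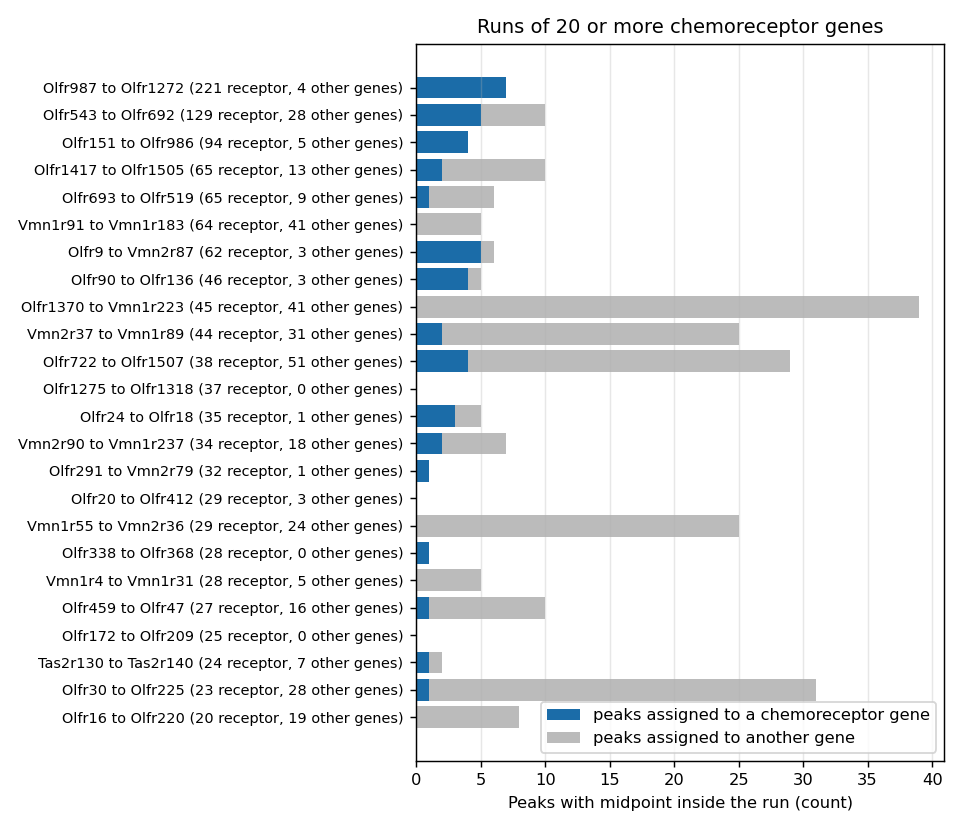
Bars give the number of peaks inside each of the 24 runs with 20 or more chemoreceptor genes, ordered by their number of genes, with peaks assigned to a chemoreceptor gene in blue and to another gene in grey. The run of 221 genes holds 7 peaks, and the longest bars, of 39 and 31 peaks, belong to runs with 41 and 28 other protein coding genes.

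Position within a run went with the share of genes that had a peak. Of the first and last genes of runs, 10 of 88 had a peak (11.4%, 6.29 to 19.7%), compared with 55 of 1349 inner genes (4.08%, 3.15 to 5.27%). Outside runs 11 of 50 genes had one (22.0%, 12.8 to 35.2%). The median gap from start to nearest peak was 53312 bp (44204 to 72206 bp) at the ends, 169663 bp (157568 to 183814 bp) inside and 33930 bp (23050 to 60549 bp) outside runs. Of the 24 chemoreceptor peaks outside runs, 8 belonged to the first or last gene of a run, 15 to genes outside runs and 1 to an inner gene.

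The sequence of chemoreceptor peaks was compared with that of other peaks beyond 1 kb of their TSS, over the 300 bp at the midpoint. The median GC content of the 83 chemoreceptor peaks at that range was 50.7% (49.3 to 52.7%), against 54.3% (54.0 to 54.3%) in 14377 other peaks, and the median CpG ratio was 0.188 (0.0997 to 0.270), against 0.242 (0.238 to 0.247). The intervals did not overlap for GC content and overlapped for the CpG ratio. Peaks of single genes departed from this, since the peaks of Olfr291, Olfr750 and Olfr1423 had CpG ratios of 1.00 to 1.05.

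Much of the sequence under these peaks was not unique. When 32-mers were read every 10 bp across a peak, the median share found more than 1 time in the genome was 32.1% (15.6 to 46.7%) beyond 1 kb. In other peaks it was 0%. Further copies within the same peak were counted too, so a tandem repeat inside a peak raises its share. More than 50% of the 32-mers recurred in 36.1% of chemoreceptor peaks, against 5.68% of other peaks beyond 1 kb. Over all distances the counts were 33 of 88 (37.5%, 28.1 to 47.9%) and 974 of 26144 (3.73%). Vmn1r peaks had 6 of 9 such peaks, Vmn2r peaks 6 of 14 and Olfr peaks 20 of 61. Reads from repeated sequence can align to several places, no filter on mapping quality is described in the methods, and the part this played in the calls was not tested.

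**Figure D5:**
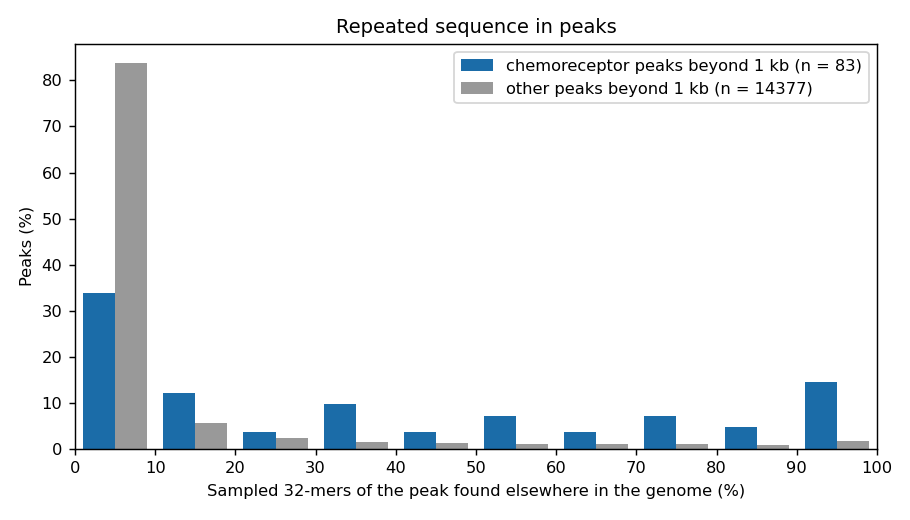
Bars give the percent of peaks (vertical axis) in each class of repeated sequence for 83 chemoreceptor peaks and 14377 other peaks, all beyond 1 kb from the assigned TSS. The horizontal axis is the percent of sampled 32-mers of a peak that occur more than 1 time in the genome, further copies within the peak included. Below 10% repeated sequence stand 33.7% of chemoreceptor peaks and 83.7% of other peaks, and at 90% or more stand 14.5% and 1.76%.

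Some of the repeated sequence was common to several chemoreceptor peaks. Peaks were grouped when a pair shared over 5% of the 32-mers of the smaller peak, which put 25 peaks into 6 groups and left 63 in no group. Only identical 32-mers count under this rule, so copies with more differences can be among the 63. The window of the Olfr893 peak, which is in no group, resembles the sequence shown at the outset. This grouping was made after the sequences were seen and is a description. The largest group was that of the 11 peaks shown at the outset, 10 of which consisted mostly of repeated 32-mers. Their median GC content was 38.3%. The 254 32-mers found in at least 6 of the 11 were then sought in the whole genome. Loci with 50% or more of them numbered 170, and 104 of these (61.2%) overlapped a peak. With a looser rule, at least 1 of the 254, there were 463 loci, and 124 (26.8%) overlapped a peak. These 32-mers were taken from the chemoreceptor peaks, so that the loci under those peaks had to overlap one. Without such loci 94 of 160 (58.8%) overlapped a peak under the stricter rule and 113 of 452 (25.0%) under the looser. Inside runs of receptor genes the counts were then 8 of 16 (50.0%, 28.0 to 72.0%) and 10 of 43 (23.3%, 13.2 to 37.7%). The 463 loci of the looser rule overlapped 114 other peaks (0.436%) and the 11 chemoreceptor peaks from which the 32-mers were taken. The latter number was fixed by the choice of the 32-mers, so these counts are not compared. Copies that overlapped a peak were found both within and outside the runs.

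A second group joined 4 peaks on 4 chromosomes, those of Olfr790, Olfr1390, Olfr1461 and Vmn1r39, which were 456 to 727 bp wide. Of 423 loci with 50% or more of its common 32-mers, 26 (6.15%) overlapped a peak, and without the loci under its own and other chemoreceptor peaks 23 of 420 did (5.48%, 3.68 to 8.08%). The next group held 2 peaks of Vmn1r3 on chromosome 4, at −7229 and −14894 bp, which shared 298 32-mers, together with the peak of Olfr1066 on chromosome 2.

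The remaining 3 groups each lay on a single chromosome. The 2 peaks of Olfr55, at −12766 and 9959 bp on either side of the gene on chromosome 17, were 472 and 478 bp wide and shared 397 32-mers, 90.0% of those in the smaller. Their midpoints were 22725 bp apart, and no other locus held 50% or more of their shared 32-mers. Parts of the sequence were nevertheless widespread. At least 1 of the shared 32-mers was found at 1117 loci, of which 9 (0.806%) overlapped a peak. The peaks of the neighbours Olfr1034 and Olfr1037 on chromosome 2, 29275 bp apart, shared 229 32-mers and lay at like positions, 4721 and 5414 bp downstream of their genes' starts. The 3 peaks of Olfr1507 among the antigen receptor segments shared 59 to 104 32-mers in pairs.

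The 300 bp windows were also searched on both strands for 6 short motifs, where a match is a description and not a binding site. TAATTA, a core recognised by homeodomain factors, was found in 13.3% (7.56 to 22.2%) of chemoreceptor peaks beyond 1 kb and in 4.62% (4.29 to 4.97%) of other peaks there. Over all distances 12 chemoreceptor peaks held it, and 11 of these were the peaks with the shared sequence, in which it stands 37 bases before the 32-base run. Without that group 1 of 73 peaks beyond 1 kb held it (1.37%, 0.242 to 7.36%), that of Olfr1339. All peaks of the group hold TAATTA and the group was formed after the sequences were seen, so leaving it out had to lower the share. Other peaks that overlap copies of the sequence were not left out, so the 1.37% is not compared with the 4.62%. Among chemoreceptor peaks TAATTA thus stood almost only in this recurring sequence.

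AGATAA, the motif of GATA factors, was in 21.7% (14.2 to 31.7%) of chemoreceptor peaks beyond 1 kb and in 14.5% of other peaks. By distance it was in 14 of the 41 peaks from 1 to 10 kb (34.1%, 21.6 to 49.5%), against 10.4% (9.43 to 11.4%) of other peaks there. From 10 to 50 kb it was in 4 of 31 (12.9%, 5.13 to 28.9%), against 14.7%. Over all distances 4 of the 20 chemoreceptor peaks with AGATAA were among the 11 with the shared sequence, those of Olfr1002 and Olfr1229 from 1 to 10 kb included. The Olfr893 peak, also from 1 to 10 kb and with AGATAA, has a window that resembles this sequence but is not among the 11. In that class the median GC content was 50.0%, against 56.3% in other peaks. What part these played in the share was not tested. GGAATG, the motif of TEAD factors, was in 21.7% (14.2 to 31.7%) and 22.4%, and CANNTG, the E-box of basic helix-loop-helix factors, in 66.3% (55.6 to 75.5%) and 76.4%. The E-box interval lay below the share in other peaks over all these distances, but from 1 to 10 kb, where 75.6% (60.7 to 86.2%) of chemoreceptor peaks held the motif, it contained the 74.8% of other peaks. The motif of Ebf factors, also called Olf factors, which act in olfactory neurons, was searched as TCCC and GGGA separated by any 2 bases. It was in 2 chemoreceptor peaks beyond 1 kb (2.41%, 0.663 to 8.37%), those of Olfr867 and Vmn1r3, and in 1.22% of other peaks. A core of the CTCF motif, CCNCN followed directly by AGGNGGC, was in 1 peak (1.20%, 0.213 to 6.51%), against 3.48% of other peaks. That peak was at −51069 bp from Vmn2r9, and the 120 bases around the match are shown on the plus strand with the match in capitals, since CTCF binds at boundaries of chromatin domains.
Vmn2r9, chr5:109332464-109332583: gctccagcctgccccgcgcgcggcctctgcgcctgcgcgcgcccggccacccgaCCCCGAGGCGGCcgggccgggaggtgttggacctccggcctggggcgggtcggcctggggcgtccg

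Promoter sequences of RefSeq, read from its GRCm38.p6 table as 250 bases before to 50 bases after each start, were available for 1310 chemoreceptor genes. They were poor in GC, with a median of 36.0% against 57.3% for other protein coding genes, and TAATTA was in 16.6% (14.7 to 18.7%) of them, against 4.46% (4.15 to 4.79%). The Ebf motif was in 0.382% (0.163 to 0.890%), below the 1.18% (1.03 to 1.36%) of other promoters, and AGATAA in 26.6%, against 9.97%. Promoters of the 41 Olfr genes with a peak and a sequence held TAATTA in 14.6% (6.88 to 28.4%) of cases, and those of 903 Olfr genes without a peak in 18.8% (16.4 to 21.5%), with overlapping intervals. Letters rich in A and T are more frequent in any sequence poor in GC. In GENCODE the start of 61.0% of chemoreceptor genes coincides with the start of the coding sequence, against 8.55% of other genes. How often this holds in RefSeq was not examined. Windows at such starts can lie outside the promoter, so the shares given here, that of the Ebf motif included, describe the windows only.

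Genes that serve these receptors were counted from a list of 29. A peak was assigned to 24 of them (82.8%, 65.5 to 92.4%), beside 62.5% of all protein coding genes. Within 1 kb of the TSS 19 had one (65.5%, 47.3 to 80.1%). This share counts midpoints by the deposited distance. By another measure, overlap of a peak with 500 bp on either side of the GENCODE start, 53.5% of all protein coding genes had a peak. The interval contains that share, but the measures are unlike. By the overlap Trpc2 would count and Pou2f3 would not. In olfactory signalling 8 of 11 genes had a peak. Gnal, the G protein subunit of olfactory neurons, Adcy3, the adenylyl cyclase that makes cyclic AMP in their cilia, the chloride channel gene Ano2, Reep1 and Gng13 had one within 1 kb, at 140, −58, −81, 230 and −89 bp. Omp, the marker protein of mature olfactory neurons, had its nearest peak at −4717 bp, the receptor chaperone gene Rtp1 at 7517 bp and the channel gene Cngb1 at 51685 bp. No peak was assigned to the cyclic nucleotide-gated channel genes Cnga2 and Cnga4 or to Rtp2. Many of these genes, the G protein subunits among them, are also used outside sensory cells.

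In vomeronasal signalling Gnao1 and Gnai2, which encode G protein subunits, had peaks at −444 and −361 bp. Trpc2 had no assigned peak, although a peak assigned to another gene overlapped its annotated start. In taste signalling Plcb2, Trpm5 and Itpr3 had a peak within 1 kb, at 8, −309 and −430 bp, the taste G protein gene Gnat3 had one at 125608 bp, and the channel gene Calhm1 had none. All 10 regulators of receptor choice and of the sensory cells had a peak (72.2 to 100%), beside 62.5% of all protein coding genes, with 30 peaks in all. They included Lhx2, a LIM-homeodomain factor needed for odorant receptor expression, with 4 peaks, its cofactor Ldb1 with 2, Ebf1 with 5, Ebf2 with 4, Ebf3 with 3 and Ebf4 with 2. Kdm1a, a histone demethylase that acts in receptor choice, had 1 peak, with its midpoint at 201 bp. Lbr, a protein of the nuclear envelope that is low in olfactory neurons and alters the packing of receptor clusters when present, had 5, with the nearest at 228 bp. Pou2f3, needed for sweet, umami and bitter taste cells, had 2, with the nearest at −123 bp. The nearest peak of Emx2 was at 3391 bp, and those of the other 9 regulators were within 1 kb.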

How the data were processed

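The analysis used the peak list shared by 2 ATAC-Seq samples of day 5 CPCs. Per the methods, reads were mapped with bowtie2 to mm9, unmapped, improperly paired and secondary alignments were removed with samtools and duplicates with Picard 1.136, and peaks were called per replicate with MACS14 without a fitted model. Peaks in the ENCODE blacklist were removed, and regions overlapping by at least 1 bp between replicates were kept with bedtools 2.15. The methods state a closest-TSS assignment for ChIP-Seq peaks and name no Tn5 offset correction. The 6 columns deposited by the authors hold a chromosome, start and end in bp, a distance in bp, an accession and a symbol, with no count, score or value per replicate. Regions called in a single replicate are thus missing, and lines may have been left out of the list as used here.

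The 26429 lines were reduced to 26232 distinct intervals. Distances are the deposited ones. For 71 of the 88 peaks they equalled the distance to the GENCODE vM1 start of the gene within 1 bp. Sequence came from NCBIM37, which is mm9, and gene names, the protein coding class and promoter sequences from RefSeq tables of GRCm38.p6, whose coordinates were not used. All 77 symbols were in the gene table. Scripts used Python 3.11.15 with pysam 0.24.0, numba 0.67.0 and scipy 1.17.1, and the search for repeated 32-mers was tested on simulated data. Shares have 95% Wilson intervals, medians order-statistic intervals and densities exact Poisson intervals. The members and lists were chosen with earlier results of these data known. Named are genes with a peak within 1 kb, the 5 widest, nearest and farthest peaks and genes with 2 or more peaks. Other genes were named after their values were seen. Alternatives varied peak width, lines, family, annotation, window and run rules.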

Additional observations from a re-analysis of the deposited data

How the results depend on the processing

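The 8 results were recomputed under 47 combinations of result and alternative, of which 34 stayed within the interval of the value or within 1.5 times a count, and 13 moved. Keeping only peaks wider than the median of the list moved 6 results. It left 12 peaks, 0.660% of genes with a peak and 0.0672% of starts with a peak, a median distance of 17544 bp, a median width of 1321.5 bp, and 1.88 peaks per Mb in runs, and the lower counts and greater width follow from the filter. Leaving out peaks that consist mostly of repeated 32-mers, an alternative chosen after seeing the data, left 55 peaks, 3.43% of genes, 0.202% of starts and 4.04 peaks per Mb in runs. Leaving out peaks nearer to another GENCODE start, also chosen after seeing the data, gave 3.69% of genes and a median distance of 8278 bp. Runs joined at gaps of 500 kb had 3.84 peaks per Mb, and whole peaks in place of 300 bp had a GC content of 48.4%. In each alternative the share of chemoreceptor genes with a peak stayed at or below 5.25% and the share of starts at or below 0.470%. Neither replicate could be left out, since values per sample are not in the list. No paired analysis was possible because the list is shared by both samples of 1 group. Depth limits every absence reported here, since regions open in few cells or called in 1 replicate are not in the list.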
